A study of Homo sapiens with 8 samples.

Results

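The unfolded protein response and the ATF4 arm of the integrated stress response were followed through 41 genes in DND-41 and MOLT-4, established human lines of T-cell acute lymphoblastic leukaemia (T-ALL). The genes were given by name and matched through the gene names in the authors' deposited tables. They are 41 of 63677 gene identifiers, and all 41 were found. HYOU1 and MANF each have a second identifier with 0 reads, so the identifier with reads was used. In all, 4 groups of 2 libraries were compared: DND-41 with 100 nM ACBI-1, DND-41 with the solvent DMSO, MOLT-4 with 100 nM ACBI-1 and MOLT-4 with DMSO, all after 8 h, at 1 dose and 1 time. ACBI-1 is a degrader that brings SMARCA2, SMARCA4 and PBRM1, subunits of BAF-type chromatin remodelling complexes, to the VHL ubiquitin ligase.

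The unfolded protein response senses a surplus of unfolded protein in the endoplasmic reticulum (ER) through the membrane proteins IRE1 (gene ERN1), ATF6 and PERK (gene EIF2AK3). IRE1 splices the mRNA of the transcription factor XBP1, ATF6 is cut in the Golgi to release a transcription factor, and both raise transcription of ER chaperones and of the machinery that removes misfolded proteins. PERK and related kinases phosphorylate eIF2, which lowers translation in general, raises translation of ATF4 mRNA and, through ATF4, induces genes for amino acid supply, for tRNA charging and for the factor CHOP (gene DDIT3).

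Levels are given in CPM, each count scaled to the effective size of its library. For the cell type markers and the floor of 3 counts, CPM is scaled to the total counts instead. A log2 fold change sets ACBI-1 over DMSO, 2 libraries against 2, and is followed by ± its SE. A gene is said to have risen or fallen only where edgeR's quasi-likelihood test gave a Benjamini-Hochberg adjusted p below 0.05 over all genes tested. All 41 genes passed the low-count filter in every comparison. Depth was even, with 19860759 to 20239888 counts a library, at which 3 counts amount to 0.148 to 0.151 CPM (counting error only). Separate cultures are not stated in the labels, so the p-values speak for variation among these libraries alone, possibly technical. In bulk RNA, fewer cells of a type and less RNA per cell cannot be told apart.

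All 7 T-cell markers were present in all 4 groups, and all 3 erythroid markers were at 0. B-lineage markers summed to 976 to 1079 CPM with ACBI-1 and 1644 to 1650 CPM with DMSO in DND-41, with MS4A1 and PAX5 at 0 in every library, and their part in the DND-41 results was not tested. Stromal or epithelial markers stood out in the replicate 2 libraries of MOLT-4. COL1A1, a fibroblast collagen, had 0 and 10.2 CPM in the MOLT-4 ACBI-1 libraries, against 2.08 and 55.4 CPM in the MOLT-4 DMSO libraries, with EPCAM at 0. The 4 stromal or epithelial markers summed to 0.644 to 12.8 CPM with ACBI-1 and 3.67 to 69.0 CPM with DMSO in MOLT-4, and to at most 0.201 CPM in any DND-41 library. The mitochondrially encoded genes took 21.3% to 24.6% of counts with ACBI-1 and 14.4% to 19.0% with DMSO in MOLT-4, and 11.8% to 15.5% against 12.1% to 13.2% in DND-41. Their part in the MOLT-4 results was not tested, and values without both replicate 2 libraries of MOLT-4, fitted together with DND-41, are given beside the 26 calls of the 41 genes in MOLT-4.

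With ACBI-1, falls outnumbered rises among the stress genes in both lines. ER chaperones made up 8 of 18 falls in DND-41 and 11 of 20 in MOLT-4. In DND-41, 8 of the 41 genes rose (19.5%) and 18 fell (43.9%), where 20% of all 14008 genes tested rose and 23.2% fell. In MOLT-4, 6 rose (14.6%) and 20 fell (48.8%), where 20.7% of all 14239 genes tested rose and 24.4% fell. The rises were therefore near or under the background share, and the falls above it. The 41 genes were chosen with earlier results of these data known, so these shares describe the list and do not test it. The median log2 fold change of the 41 genes was -0.07 in DND-41 and -0.22 in MOLT-4, against medians of 0.01 and 0.00 over all genes tested.

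Of the 41 genes, 14 fell in both lines (34.1%), where 15.6% of the 12859 genes tested in both lines did so. They were the chaperones HSPA5, HSP90B1, HYOU1, CANX, PDIA6, DNAJC3 and MANF, the factors XBP1 and DDIT3, the stress protein gene SESN2, the transporters SLC3A2, SLC38A2 and SLC7A1, and SEL1L of ER-associated degradation. The genes that rose in both lines were 3 tRNA synthetase genes, AARS, NARS and EPRS (7.32%, against 12.02% of all genes tested in both). Without DMSO replicate 1 of DND-41, AARS and NARS did not pass in that line (adjusted p = 0.242 and 0.0536). Without both replicate 2 libraries of MOLT-4, NARS and EPRS did not pass there (adjusted p = 0.197 and 0.22). ATF5 and EDEM1 fell in DND-41 and rose in MOLT-4. Another 8 genes, among them ERN1, EIF2AK3 and ATF4, passed the test in neither line.

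**Figure D1:**
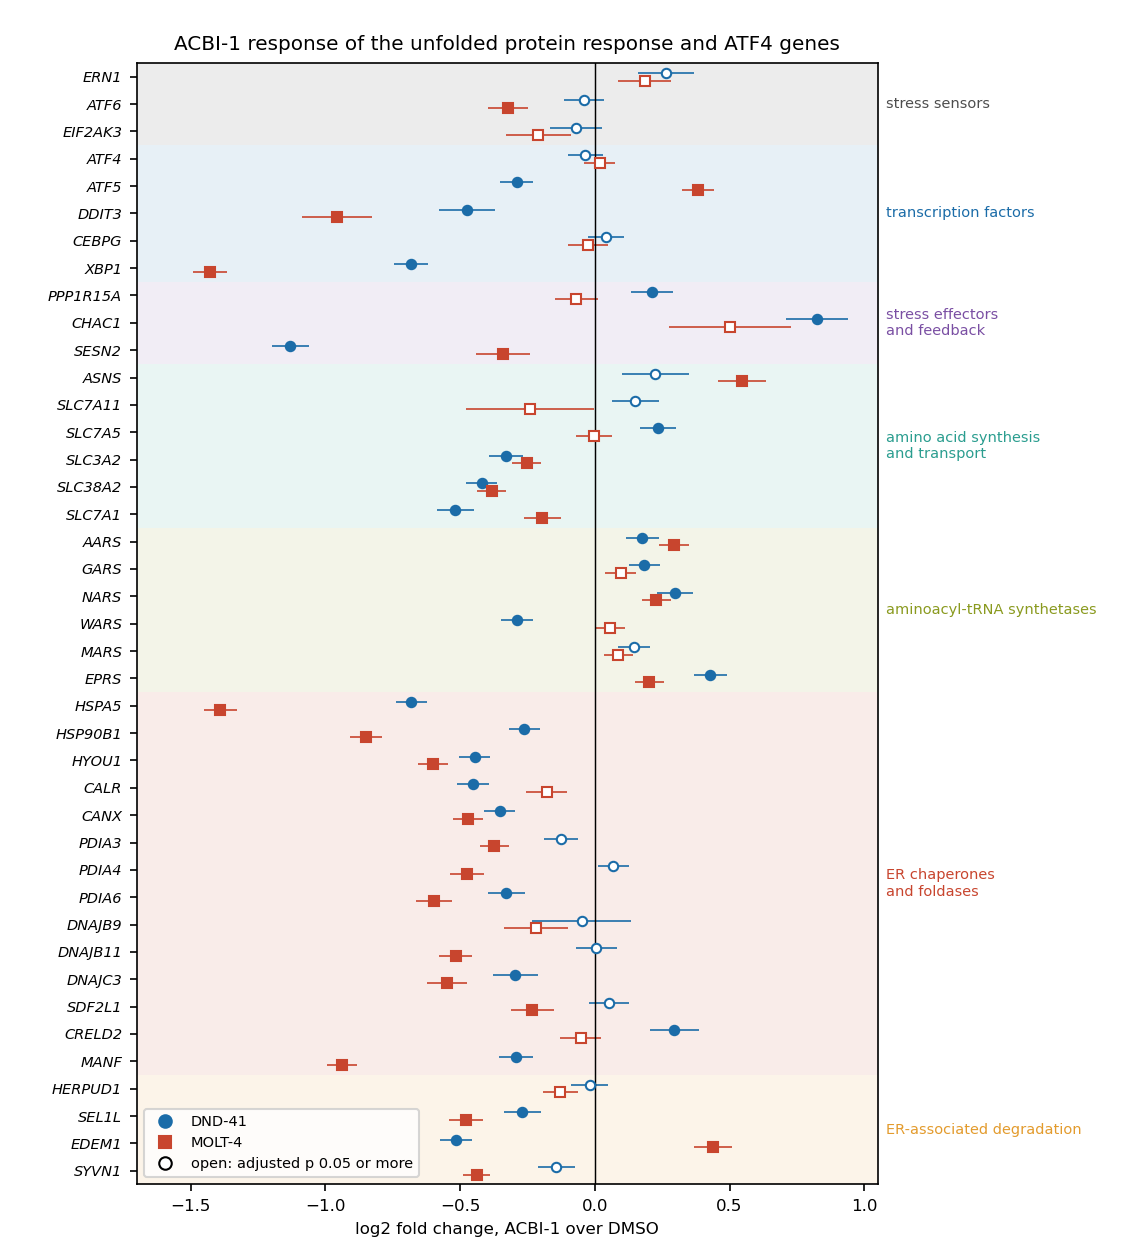
Log2 fold change (ACBI-1 over DMSO) of each of the 41 genes in DND-41 (circles) and MOLT-4 (squares), grouped by role; bars are 1 SE and open symbols did not reach an adjusted p below 0.05. The ER chaperones lie mostly left of 0 in both lines, HSPA5 at -0.68 and -1.39, while the tRNA synthetases lie mostly right of 0.

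The number of falls held up better than that of rises when libraries were left out. Without DMSO replicate 1 or DMSO replicate 2 of DND-41, 3 genes rose in that line rather than 8, while 17 and 15 fell. Without both replicate 2 libraries of MOLT-4, 4 genes rose and 17 fell in that line. Over all 11 alternatives for DND-41, 16 of the 26 calls passed in each, and over the 12 for MOLT-4, 21 of 26 did.

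The promoters of these genes were read for the sequence elements through which the pathway is known to act, since the members that fell together include several chaperones known for such elements. Sequences are from RefSeq on GRCh38.p14 and cover 250 bases before to 50 bases after each annotated start, and 39 of the 41 genes matched (all but SLC7A11 and PDIA3), with 55 windows in all. The ER stress response element (ERSE) was searched as CCAAT and CCACG with 9 bases of any kind between them, and the related ERSE-II as ATTGG and CCACG with 1 base between them, each on both strands. ERSE was found in 9 of the 55 windows (16.4%), those of XBP1, HSPA5, HSP90B1, CALR, CANX, PDIA6 and CRELD2, against 27 of 35114 windows of all genes (0.0769%). ERSE-II was found in 3 windows (5.45%), those of HYOU1, SDF2L1 and HERPUD1, against 19 of all windows (0.0541%). The windows of all genes include those of the 41. The 41 genes were listed as members of this pathway, several of them known for such elements. These shares therefore describe the list, and no enrichment was tested. Windows of a gene can overlap, and 3 of the 4 windows of CANX hold the same match. XBP1 and PDIA6 each have ERSE in 1 of 2 windows. The 7 genes with ERSE carry it as follows, with 10 bases on either side and the fixed letters of the element in capitals.
XBP1, chr22:28800593-28800631, minus strand: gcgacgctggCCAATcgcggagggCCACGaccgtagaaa
HSPA5, chr9:125241381-125241419, minus strand: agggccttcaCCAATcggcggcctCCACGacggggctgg
HSP90B1, chr12:103930206-103930244, plus strand: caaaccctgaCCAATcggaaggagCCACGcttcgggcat
HSP90B1, chr12:103930311-103930349, minus strand: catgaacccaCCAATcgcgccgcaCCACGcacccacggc
CALR, chr19:12938374-12938412, minus strand: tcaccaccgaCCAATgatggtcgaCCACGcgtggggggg
CANX, chr5:179698768-179698806, plus strand: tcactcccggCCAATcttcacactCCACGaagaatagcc
PDIA6, chr2:10812843-10812881, minus strand: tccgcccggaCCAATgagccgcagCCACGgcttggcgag
CRELD2, chr22:49918544-49918582, minus strand: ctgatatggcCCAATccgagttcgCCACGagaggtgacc

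The matches lie in either orientation. Counted from the annotated start to the first base of the match, they begin at position -225 in CALR, -86 in PDIA6, -80 in CRELD2, -66 in HSPA5 and -52 in XBP1. HSP90B1 has a pair in opposite orientations, at -194 and -89. The match of CANX lies at -189, -151 or -9 by which annotated start is used, and its remaining window has none. The 9 bases between the CCAAT and CCACG blocks differ from gene to gene. The 3 genes with ERSE-II, in which the blocks are joined by a single base, are shown in the same way. Both matches of HYOU1 have A as that base.
HYOU1, chr11:119057370-119057400, plus strand: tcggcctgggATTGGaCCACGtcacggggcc
HYOU1, chr11:119057264-119057294, plus strand: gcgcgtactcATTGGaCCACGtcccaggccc
SDF2L1, chr22:21642104-21642134, minus strand: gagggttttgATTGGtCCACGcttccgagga
HERPUD1, chr16:56932015-56932045, plus strand: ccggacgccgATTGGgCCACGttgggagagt

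Whole windows are shown for HSPA5, which has a single ERSE, for XBP1, and for HYOU1 with 2 ERSE-II matches, because these are the chaperone and the factor that fell most in MOLT-4 and the ERSE-II gene that fell in both lines. Capitals mark the matches to ERSE or ERSE-II. In HYOU1 the first capital run also takes in TGACGTGG, the site letters of ATF6 and XBP1, which overlap the ERSE-II match there.
HSPA5 promoter window, chr9:125241294-125241593, minus strand: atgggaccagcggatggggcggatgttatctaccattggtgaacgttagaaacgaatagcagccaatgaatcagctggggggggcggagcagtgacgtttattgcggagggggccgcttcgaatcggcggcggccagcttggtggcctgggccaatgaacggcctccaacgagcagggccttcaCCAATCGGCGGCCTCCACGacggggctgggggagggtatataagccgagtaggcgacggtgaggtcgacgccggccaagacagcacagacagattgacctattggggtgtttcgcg
XBP1 promoter window, chr22:28800520-28800819, minus strand: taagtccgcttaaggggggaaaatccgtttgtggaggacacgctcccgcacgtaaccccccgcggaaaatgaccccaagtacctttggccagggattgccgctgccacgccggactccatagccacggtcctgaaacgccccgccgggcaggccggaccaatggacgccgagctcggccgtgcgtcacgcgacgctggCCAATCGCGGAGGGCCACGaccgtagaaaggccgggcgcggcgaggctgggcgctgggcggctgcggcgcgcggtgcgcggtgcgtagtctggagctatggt
HYOU1 promoter window, chr11:119057156-119057455, minus strand: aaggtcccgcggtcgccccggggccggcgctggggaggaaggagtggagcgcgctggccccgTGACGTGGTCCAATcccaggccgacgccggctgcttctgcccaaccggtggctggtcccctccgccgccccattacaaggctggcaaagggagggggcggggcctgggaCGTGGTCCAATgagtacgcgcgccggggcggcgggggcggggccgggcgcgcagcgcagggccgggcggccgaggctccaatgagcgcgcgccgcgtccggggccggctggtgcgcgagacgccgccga

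**Figure D2:**
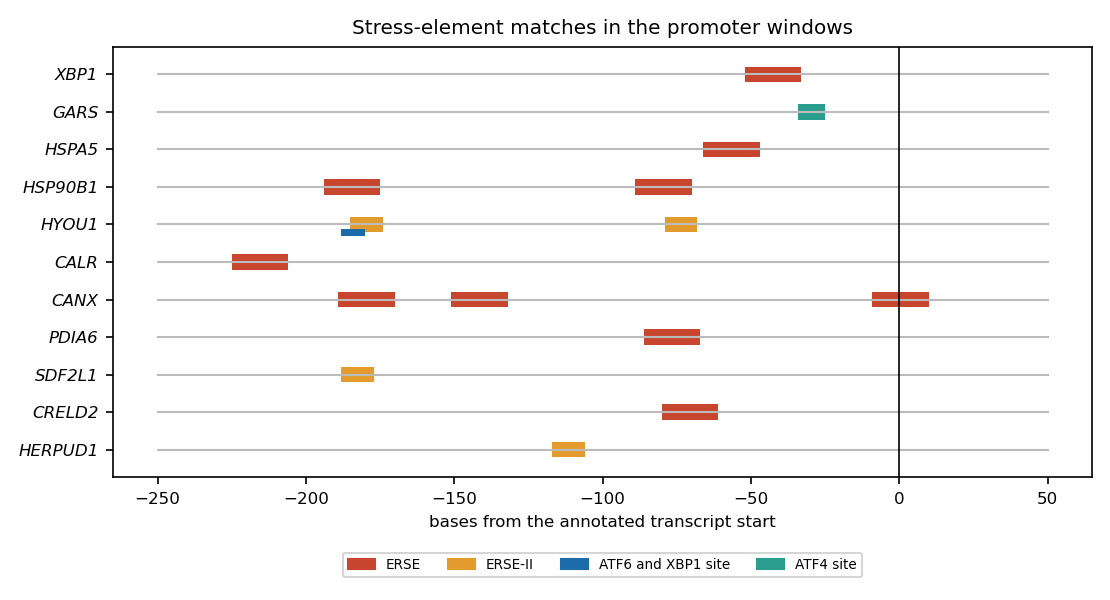
Position of element matches within the RefSeq promoter windows, in bases from the annotated transcript start (vertical line); each row is a gene and each coloured block a match. CANX has several annotated starts, so its single match appears at 3 distances. GARS has the match to the ATF4 site, searched as TGATGNAAT alone.

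TGACGTGG itself, searched on both strands, was found in the window of HYOU1 alone among the 41 genes, and in 0.729% of all windows. The ATF4 site was searched in 1 form alone, TGATGNAAT, on both strands, and forms with another last base were not searched. TGATGNAAT was found in 1 of the 2 windows of GARS, the glycyl-tRNA synthetase, and in 0.991% of all windows. Which of the 41 genes hold another form of the site was therefore not read. Of the 10 genes with ERSE or ERSE-II, XBP1, HSPA5, HSP90B1, HYOU1, CANX and PDIA6 fell in both lines. Over all genes tested in both lines, 15.6% did so. CALR passed as a fall in DND-41 alone and SDF2L1 in MOLT-4 alone. CRELD2 rose in DND-41, and HERPUD1 passed in neither line. Of the 29 matched genes with neither element in their windows, 11 fell in DND-41 and 12 in MOLT-4. The shares of all genes tested that fell were 23.2% and 24.4%. Among the 29, the chaperones MANF, PDIA4, DNAJC3 and DNAJB11 fell in at least 1 line. The search was prompted by the falls, so these counts are a description. Changes of genes with and without an element were not tested against each other. A match is a description of letters in a window, and no match says only that these letters are not in it.

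Of the 3 sensor genes, ATF6 fell in MOLT-4 and no other change passed the test. ERN1, which encodes the kinase and nuclease IRE1, had 16.6 and 19.97 CPM with ACBI-1, against 15.8 and 14.9 CPM with DMSO in DND-41, and 15.6 and 15.4 CPM against 13.8 and 13.4 CPM in MOLT-4. The ACBI-1 libraries lay above the DMSO libraries in both lines, at log2 fold changes of 0.26 ± 0.11 (adjusted p = 0.056) and 0.19 ± 0.10 (adjusted p = 0.136). The DND-41 value passed once ACBI-1 replicate 1 was left out (0.39, adjusted p = 0.00091).

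ATF6, the sensor cut in the Golgi, had 45.4 and 40.9 CPM with ACBI-1, against 46.3 and 43.2 CPM with DMSO in DND-41, where the groups overlapped (-0.04 ± 0.07, adjusted p = 0.696). In MOLT-4 it had 41.1 and 38.3 CPM with ACBI-1, against 51.6 and 47.5 CPM with DMSO. Both treated libraries were lower and ATF6 fell in MOLT-4 (-0.32 ± 0.07, adjusted p = 0.00128; -0.34, adjusted p = 0.0341 without both replicate 2 libraries). EIF2AK3, the gene of PERK, had 14.2 and 15.5 CPM with ACBI-1, against 15.5 and 15.9 CPM with DMSO in DND-41, and 10.27 and 12.003 CPM against 11.7 and 13.9 CPM in MOLT-4. AC062029.1, opposite EIF2AK3 with 493 reads against 2207, was at -0.41 and -0.34 and did not pass, and its part was not tested. The EIF2AK3 groups lay close together or overlapped, and the log2 fold changes were -0.07 ± 0.10 and -0.21 ± 0.12 (adjusted p = 0.597 and 0.166). The MOLT-4 value passed without DMSO replicate 1 (-0.32, adjusted p = 0.0397).

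Among the 5 transcription factors, XBP1 and DDIT3 fell in both lines while ATF4 mRNA did not pass the test in either. ATF4, the activator of the amino acid arm, had 803 and 738 CPM with ACBI-1, against 812 and 782 CPM with DMSO in DND-41, and 323 and 301 CPM against 304 and 311 CPM in MOLT-4. The groups overlapped in both lines, at -0.04 ± 0.06 and 0.02 ± 0.06 (adjusted p = 0.705 and 0.828). ATF4 is regulated largely at translation, which these libraries do not read.

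XBP1, the factor made active by IRE1 splicing, had 430 and 424 CPM with ACBI-1, against 717 and 666 CPM with DMSO in DND-41. In MOLT-4 it had 54.0 and 55.8 CPM with ACBI-1, against 138 and 156 CPM with DMSO. Every treated library lay well under its DMSO libraries, and XBP1 fell to 0.62 of the DMSO level in DND-41 (-0.68 ± 0.06, adjusted p = 5.71e-07) and to 0.37 of it in MOLT-4 (-1.43 ± 0.06, adjusted p = 6.26e-13). The MOLT-4 value was -1.37 without both replicate 2 libraries. The counts are per gene, so spliced and unspliced XBP1 mRNA were not separated.

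DDIT3, the gene of the pro-apoptotic factor CHOP, had 11.9 and 10.6 CPM with ACBI-1, against 15.9 and 15.6 CPM with DMSO in DND-41, and 5.40 and 6.83 CPM against 12.1 and 11.6 CPM in MOLT-4. Its treated libraries were lower without overlap in both lines (-0.48 ± 0.10, adjusted p = 0.00182, and -0.96 ± 0.13, adjusted p = 6.43e-06; -1.17 in MOLT-4 without both replicate 2 libraries). The libraries were strand-specific, but the strand setting of the counting is not given in the sources used here, and DDIT3 overlaps 2 opposite-strand genes with 82748 reads over the 8 libraries, against 1825 for DDIT3. MARS, which holds 44776 of them, was at 0.15 in DND-41 and 0.09 in MOLT-4 and did not pass the test in either. The part of these genes in the DDIT3 values was not tested.

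ATF5, an ATF4-related factor, had 716 and 732 CPM with ACBI-1, against 865 and 922 CPM with DMSO in DND-41, and 101 and 113 CPM against 81.8 and 81.8 CPM in MOLT-4. Both treated libraries were lower in DND-41 and higher in MOLT-4, so ATF5 fell in DND-41 (-0.29 ± 0.06, adjusted p = 0.00171) and rose in MOLT-4 (0.38 ± 0.06, adjusted p = 2.56e-05; 0.29 without both replicate 2 libraries). Leaving out DMSO replicate 2 ended the DND-41 call (-0.25, adjusted p = 0.0954). NUP62 overlaps ATF5 on the opposite strand, with 54822 reads over the 8 libraries against 75470 for ATF5, and it was higher with ACBI-1 in both lines (0.16 and 0.29, adjusted p = 0.0432 and 0.000573), so its part in the ATF5 values was not tested. CEBPG, a partner of ATF4 on DNA, had 30.7 to 41.3 CPM over all libraries and was at 0.04 ± 0.07 and -0.03 ± 0.08.

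**Figure D3:**
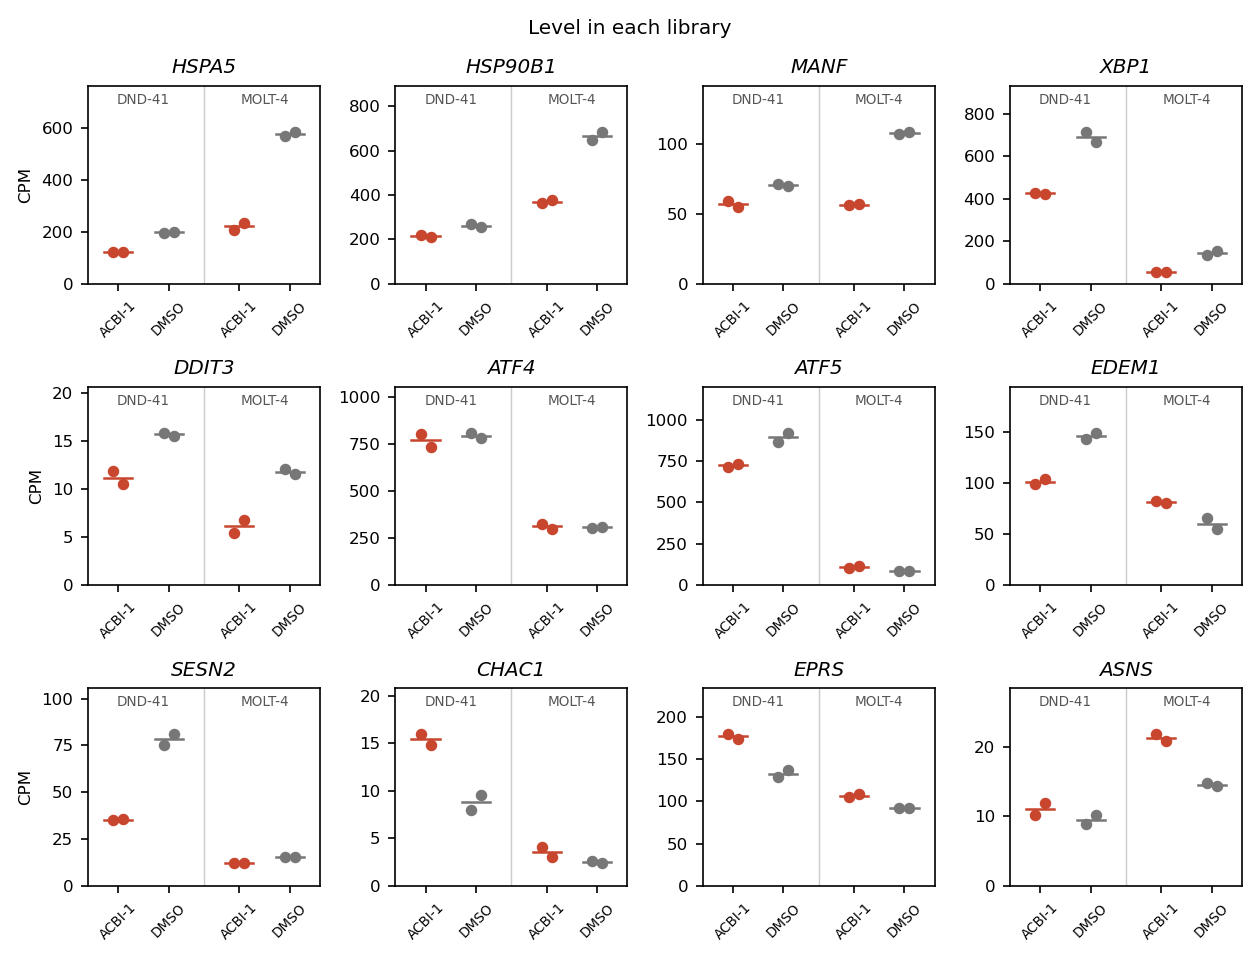
CPM of 12 genes in each library, with ACBI-1 (red) left of DMSO (grey) in DND-41 and in MOLT-4; points are the 2 libraries of a group, lines their mean, and every axis starts at 0. HSPA5, HSP90B1, MANF, XBP1 and DDIT3 are lower with ACBI-1 in both lines, ATF4 overlaps, and ATF5 and EDEM1 are lower in DND-41 but higher in MOLT-4.

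The stress effectors went different ways. SESN2, a sestrin that restrains mTORC1 and is induced by ATF4 and p53, had 35.0 and 35.9 CPM with ACBI-1, against 75.4 and 81.3 CPM with DMSO in DND-41, and 12.3 and 12.3 CPM against 15.5 and 15.6 CPM in MOLT-4. It fell to 0.46 of the DMSO level in DND-41 (-1.13 ± 0.07, adjusted p = 8.39e-09), and its treated libraries were also lower in MOLT-4, where it fell to 0.79 of the DMSO level (-0.34 ± 0.10, adjusted p = 0.00912). In MOLT-4, DESeq2 did not make this call (adjusted p = 0.109), nor did the fit lacking both replicate 2 libraries (-0.35, adjusted p = 0.0839).

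CHAC1, which degrades glutathione and is a target of ATF4 and CHOP, moved the other way, with 16.03 and 14.8 CPM with ACBI-1, against 8.02 and 9.57 CPM with DMSO in DND-41. It rose there by 1.77 times (0.82 ± 0.12, adjusted p = 4.4e-05), without overlap. In MOLT-4 it had 4.08 and 3.03 CPM with ACBI-1, against 2.57 and 2.43 CPM with DMSO (0.50 ± 0.23, adjusted p = 0.0786), and it passed there without ACBI-1 replicate 2 (0.70, adjusted p = 0.0411) but not without both replicate 2 libraries (0.65, adjusted p = 0.113). PPP1R15A, the regulatory subunit that dephosphorylates eIF2, had 27.6 and 27.9 CPM with ACBI-1, against 23.9 and 24.5 CPM with DMSO in DND-41, and 23.7 and 22.1 CPM against 24.4 and 23.5 CPM in MOLT-4. It rose in DND-41 (0.21 ± 0.08, adjusted p = 0.038) and not in MOLT-4 (-0.07 ± 0.08, adjusted p = 0.526). That rise was lost without ACBI-1 replicate 2, DMSO replicate 1 or DMSO replicate 2 of DND-41, at 0.20, 0.19 and 0.23 (adjusted p = 0.057, 0.264 and 0.155), and with DESeq2 (adjusted p = 0.198).

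Of the 6 genes of amino acid synthesis and transport, 1 rose and 3 fell in each line. Over all genes tested, 20% rose and 23.2% fell in DND-41, and 20.7% rose and 24.4% fell in MOLT-4. SLC7A1, the cationic amino acid transporter, had 303 and 340 CPM with ACBI-1, against 448 and 480 CPM with DMSO in DND-41, and 254 and 223 CPM against 291 and 254 CPM in MOLT-4. It fell clearly in DND-41 (-0.52 ± 0.07, adjusted p = 2.15e-05), while the MOLT-4 groups overlapped at their edge and the fall was small (-0.19 ± 0.07, adjusted p = 0.027). DESeq2 did not make the MOLT-4 call (adjusted p = 0.312), nor did edgeR with all 8 libraries in 1 fit (adjusted p = 0.0569). Leaving out ACBI-1 replicate 2, DMSO replicate 1 or both replicate 2 libraries ended the MOLT-4 call, at -0.10, -0.09 and -0.21 (adjusted p = 0.339, 0.265 and 0.151).

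SLC38A2, a sodium-coupled neutral amino acid transporter, fell by similar amounts in the lines, at -0.42 ± 0.06 in DND-41 and -0.38 ± 0.05 in MOLT-4 (adjusted p = 3.29e-05 and 8.07e-06). SLC3A2, the heavy chain that carries several transporters to the membrane, fell too (-0.33 ± 0.06 and -0.25 ± 0.05). Without both replicate 2 libraries of MOLT-4, SLC38A2 was at -0.45 and SLC3A2 at -0.32 there, and both passed. Its partner SLC7A5, the large neutral amino acid transporter, had 1146 and 1206 CPM with ACBI-1, against 972 and 1046 CPM with DMSO in DND-41, and 420 and 392 CPM against 436 and 376 CPM in MOLT-4. The treated libraries were higher in DND-41 and overlapped the controls in MOLT-4, and SLC7A5 rose in DND-41 (0.24 ± 0.07, adjusted p = 0.0104). Leaving out either DMSO library of DND-41 ended this call, at 0.18 without replicate 1 and 0.29 without replicate 2 (adjusted p = 0.299 and 0.0635).

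ASNS, asparagine synthetase, had 10.1 and 11.8 CPM with ACBI-1, against 8.87 and 10.1 CPM with DMSO in DND-41, and 21.9 and 20.8 CPM against 14.8 and 14.3 CPM in MOLT-4. The MOLT-4 groups were well apart and ASNS rose there (0.55 ± 0.09, adjusted p = 5.78e-05; 0.55 without both replicate 2 libraries), the largest rise among the 41 genes in that line that passed the test. The DND-41 value was 0.22 ± 0.12 (adjusted p = 0.161) and passed without ACBI-1 replicate 1 (0.33, adjusted p = 0.0326). SLC7A11, the cystine transporter, was at 0.15 ± 0.09 and -0.24 ± 0.24 (adjusted p = 0.183 and 0.441), and passed in DND-41 without ACBI-1 replicate 1 (0.24, adjusted p = 0.00765). With 2.68 to 4.41 CPM, its MOLT-4 value turned on single libraries. SLC7A11 was at 0.16 there without DMSO replicate 1, at -0.55 without DMSO replicate 2 and at -0.58 without both replicate 2 libraries, and passed in none of these fits (adjusted p = 0.693, 0.0566 and 0.144).

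Of the 6 tRNA synthetase genes, which charge tRNAs with amino acids, 4 rose and 1 fell in DND-41, where 20% of all genes rose, and 3 rose and 3 did not pass in MOLT-4, where 20.7% did. Their median log2 fold changes were 0.18 and 0.15. Of the rises in DND-41, that of EPRS alone passed in every fit that left out 1 library. EPRS, the glutamyl-prolyl synthetase, had 180 and 174 CPM with ACBI-1, against 129 and 137 CPM with DMSO in DND-41, and 105 and 109 CPM against 92.2 and 92.7 CPM in MOLT-4. Its groups did not overlap in either line (0.43 ± 0.06, adjusted p = 3.95e-05, and 0.20 ± 0.05, adjusted p = 0.00429). In MOLT-4 the EPRS call was lost without ACBI-1 replicate 2, with scaling by library size alone and without both replicate 2 libraries, at 0.18, 0.12 and 0.17 (adjusted p = 0.0601, 0.235 and 0.22).

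NARS, the asparaginyl synthetase, had 241 and 211 CPM with ACBI-1, against 181 and 190 CPM with DMSO in DND-41, and 110 and 107 CPM against 94.4 and 90.0 CPM in MOLT-4. AARS, the alanyl synthetase, had 177 and 161 CPM with ACBI-1, against 151 and 151 CPM with DMSO in DND-41, and 219 and 221 CPM against 173 and 186 CPM in MOLT-4. All treated libraries were above the controls, and both genes rose in both lines, NARS at 0.30 ± 0.07 and 0.23 ± 0.05 and AARS at 0.18 ± 0.06 and 0.29 ± 0.05. The DND-41 calls depended on single libraries, and that of AARS was also lost with DESeq2 and with no filter (adjusted p = 0.0773 and 0.104). That of NARS was lost without DMSO replicate 1 (0.26, adjusted p = 0.0536). That of AARS was lost without ACBI-1 replicate 1, DMSO replicate 1 or DMSO replicate 2, at 0.11, 0.17 and 0.17 (adjusted p = 0.138, 0.242 and 0.211). Without both replicate 2 libraries of MOLT-4, AARS was at 0.33 and passed, and NARS was at 0.20 (adjusted p = 0.197). NARS in MOLT-4 was at 0.15 with scaling by library size alone (adjusted p = 0.133).

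The GARS gene of the glycyl synthetase, with TGATGNAAT in 1 of its 2 windows, rose in DND-41 (0.18 ± 0.06, adjusted p = 0.0202). Without DMSO replicate 1 and without DMSO replicate 2 that call was lost, at 0.15 and 0.21 (adjusted p = 0.334 and 0.15). It was at 0.10 ± 0.06 in MOLT-4 (adjusted p = 0.191), and passed there without DMSO replicate 1 (0.17, adjusted p = 0.0196). AC005154.6, opposite GARS with 3346 reads against 52187, was higher with ACBI-1 in both lines (0.60 and 0.49), and its part in the GARS values was not tested. WARS, the tryptophanyl synthetase, which is also induced by interferon, fell in DND-41 (-0.29 ± 0.06, adjusted p = 0.0011) and was at 0.06 ± 0.05 in MOLT-4. WDR25, opposite WARS with 2636 reads against 22399, was higher with ACBI-1 in both lines (0.30 and 0.37). ARHGAP9, opposite MARS with 4925 reads against 44776, was lower with ACBI-1 in both (-0.54 and -0.65). The part of WDR25 in the WARS values and of ARHGAP9 in the MARS values was not tested. MARS, the methionyl synthetase, was at 0.15 ± 0.06 and 0.09 ± 0.06 (adjusted p = 0.0618 and 0.212), and passed in DND-41 without ACBI-1 replicate 2 (0.19, adjusted p = 0.00184).

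Most of the 14 ER chaperones and foldases fell in each line. In DND-41, 8 of 14 fell and 1 rose (median -0.28), and in MOLT-4, 11 fell and 3 did not pass (median -0.50). Over all genes tested, 23.2% fell and 20% rose in DND-41, and 24.4% fell in MOLT-4. Their summed level was 2034 and 1969 CPM with ACBI-1, against 2529.7 and 2560.0 CPM with DMSO in DND-41, and 3303 and 3479 CPM against 4687 and 4873 CPM in MOLT-4. The treated libraries lay below the controls in both lines, with no overlap.

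HSPA5, the ER chaperone BiP that also holds the sensors inactive, had 123 and 124 CPM with ACBI-1, against 198 and 202 CPM with DMSO in DND-41. In MOLT-4 it had 209 and 234 CPM with ACBI-1, against 571 and 586 CPM with DMSO. The groups were far apart relative to the spread within them, and HSPA5 fell to 0.62 of the DMSO level in DND-41 (-0.68 ± 0.06, adjusted p = 2.4e-07) and to 0.38 of it in MOLT-4 (-1.39 ± 0.06, adjusted p = 7.53e-13). The MOLT-4 value was -1.46 without both replicate 2 libraries.

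HSP90B1, the ER form of HSP90 known as GRP94, had 221 and 212 CPM with ACBI-1, against 267 and 257 CPM with DMSO in DND-41, and 366 and 376 CPM against 648 and 685 CPM in MOLT-4. It fell without overlap in both lines (-0.26 ± 0.06, adjusted p = 0.00217, and -0.85 ± 0.06, adjusted p = 6.08e-10; -0.84 in MOLT-4 without both replicate 2 libraries). In DND-41, leaving out DMSO replicate 1 ended the call (-0.24, adjusted p = 0.0719). MANF, a secreted ER stress protein that binds BiP, had 59.1 and 55.4 CPM with ACBI-1, against 71.6 and 70.0 CPM with DMSO in DND-41, and 56.4 and 57.0 CPM against 108 and 109 CPM in MOLT-4. Its treated libraries were lower in both lines, and MANF fell to 0.82 and 0.52 of the DMSO level (-0.29 ± 0.06, adjusted p = 0.00205, and -0.94 ± 0.06, adjusted p = 5.77e-11; -0.95 in MOLT-4 without both replicate 2 libraries).

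HYOU1, a large HSP70-type chaperone and the gene with 2 ERSE-II matches, had 190 and 197 CPM with ACBI-1, against 268 and 264 CPM with DMSO in DND-41, and 245 and 236 CPM against 363 and 364 CPM in MOLT-4. It fell by near amounts in the lines (-0.45 ± 0.06, adjusted p = 1.85e-05, and -0.60 ± 0.05, adjusted p = 2.45e-08). CANX, the membrane lectin calnexin, fell as well (-0.35 ± 0.06 and -0.47 ± 0.06), as did the disulfide isomerase PDIA6 (-0.33 ± 0.07 and -0.60 ± 0.07) and DNAJC3, a BiP co-chaperone and PERK inhibitor (-0.30 ± 0.08 and -0.55 ± 0.07). Without both replicate 2 libraries of MOLT-4, HYOU1, CANX, PDIA6 and DNAJC3 were at -0.58, -0.52, -0.60 and -0.54 there, and all 4 passed. DNAJC3 in DND-41 missed the threshold without DMSO replicate 2, at -0.23, and with DESeq2 (adjusted p = 0.152 and 0.0643).

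CALR, the soluble lectin calreticulin, fell in DND-41 (-0.45 ± 0.06, adjusted p = 2.74e-05). In MOLT-4, with 1424 to 1689 CPM, it was at -0.18 ± 0.08 (adjusted p = 0.0632), and it passed as a fall in 6 alternatives, among them DESeq2 and leaving out DMSO replicate 1 (adjusted p = 0.00767 and 0.0265). The disulfide isomerases PDIA3 and PDIA4 fell in MOLT-4 (-0.37 ± 0.05 and -0.47 ± 0.06), as did the BiP co-chaperone DNAJB11 (-0.52 ± 0.06), and all 3 did so without both replicate 2 libraries too (-0.42, -0.46 and -0.53). In DND-41 these genes were at -0.13 ± 0.06, 0.07 ± 0.06 and 0.01 ± 0.08 and did not pass, except PDIA3 without ACBI-1 replicate 1 (-0.19, adjusted p = 0.00492). TBCCD1, opposite DNAJB11 with 3218 reads against 9223, was higher with ACBI-1 in both lines (0.45 and 0.25).

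SDF2L1, a partner of the BiP complex, fell by a little in MOLT-4 (-0.23 ± 0.08, adjusted p = 0.0229). The call was lost without ACBI-1 replicate 1, DMSO replicate 2 or both replicate 2 libraries, at -0.19, -0.10 and -0.15 (adjusted p = 0.102, 0.328 and 0.324), and with DESeq2 (adjusted p = 0.101). It was at 0.05 ± 0.08 in DND-41. CRELD2, an ER protein induced by stress, had 27.3 and 26.0 CPM with ACBI-1, against 23.6 and 20.2 CPM with DMSO in DND-41, and 35.2 and 33.8 CPM against 33.8 and 37.6 CPM in MOLT-4. It was the only chaperone gene to rise, in DND-41 (0.29 ± 0.09, adjusted p = 0.0165), and that call was lost without DMSO replicate 2, at 0.18, and with DESeq2 (adjusted p = 0.274 and 0.0787). ALG12, opposite CRELD2 with 2795 reads against 4733, was at -0.01 and -0.24 and did not pass. DNAJB9, a BiP co-chaperone that represses IRE1, had 3.84 to 10.7 CPM and did not pass (-0.05 ± 0.19 and -0.22 ± 0.12). THAP5, opposite DNAJB9 with 6493 reads against 1111, was at 0.25 and 0.16 and rose in DND-41 (adjusted p = 0.0189), and its part in the DNAJB9 values was not tested.

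Of the 4 genes of ER-associated degradation, which returns misfolded proteins to the cytosol for the proteasome, 2 fell in DND-41, and 2 fell and 1 rose in MOLT-4. Over all genes tested, 23.2% fell in DND-41, and 24.4% fell and 20.7% rose in MOLT-4. EDEM1, which trims mannose from misfolded glycoproteins, had 98.9 and 104 CPM with ACBI-1, against 143 and 150 CPM with DMSO in DND-41, and 82.9 and 80.9 CPM against 65.4 and 55.4 CPM in MOLT-4. The treated libraries were lower in DND-41 and higher in MOLT-4, without overlap, and EDEM1 fell in DND-41 (-0.51 ± 0.06, adjusted p = 8.2e-06) and rose in MOLT-4 (0.44 ± 0.07, adjusted p = 3.88e-05; 0.33, adjusted p = 0.0197 without both replicate 2 libraries).

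SEL1L, the scaffold of the HRD1 ligase, fell in both lines (-0.27 ± 0.07 and -0.48 ± 0.06; -0.59 in MOLT-4 without both replicate 2 libraries), and in DND-41 not without DMSO replicate 2 (-0.20, adjusted p = 0.15). SYVN1, the HRD1 ligase itself, fell in MOLT-4 (-0.44 ± 0.05, adjusted p = 8.87e-07; -0.47 without both replicate 2 libraries) and was at -0.14 ± 0.07 in DND-41, where it passed without ACBI-1 replicate 2 (-0.22, adjusted p = 0.00253). MRPL49, opposite SYVN1 with 12249 reads against 17824, was at 0.13 and -0.02 and did not pass. HERPUD1, an ER membrane protein that assists the ligase, was at -0.02 ± 0.07 and -0.13 ± 0.07, and passed in MOLT-4 without DMSO replicate 2 and with scaling by library size alone, at -0.19 and -0.21 (adjusted p = 0.0234 and 0.0479).

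The test of the difference in effect, MOLT-4 minus DND-41, asked whether the lines answered ACBI-1 unequally. It called 7 of the 41 genes lower (17.1%) and 6 higher (14.6%), where 6.17% of all 15498 genes tested were lower and 7.18% higher. Of the 7 lower, 5 were chaperones, and these fell more in MOLT-4 or fell only there by the test within each line. HSPA5 differed by -0.69 ± 0.08 (adjusted p = 1.37e-05), XBP1 by -0.73 ± 0.09 (adjusted p = 2.09e-05) and MANF by -0.63 ± 0.08 (adjusted p = 3.02e-05). HSP90B1, PDIA4, DNAJB11 and SYVN1 differed by -0.57 ± 0.08, -0.53 ± 0.09, -0.50 ± 0.10 and -0.28 ± 0.09.

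The genes on the other side had fallen more in DND-41 or had moved oppositely in the lines. EDEM1 differed by 0.97 ± 0.10 (adjusted p = 1.26e-06), ATF5 by 0.69 ± 0.09 (adjusted p = 3.01e-05) and SESN2 by 0.81 ± 0.11 (adjusted p = 5.46e-05). WARS, SLC7A1 and CALR differed by 0.36 ± 0.08, 0.34 ± 0.11 and 0.29 ± 0.09. HYOU1, CANX, SLC3A2 and SLC38A2 did not pass, with differences of -0.14 ± 0.08, -0.10 ± 0.08, 0.09 ± 0.09 and 0.05 ± 0.08. Of the 13 calls, 9 passed in all 15 alternatives. WARS, CALR and SLC7A1 were lost with library size alone, at 0.24, 0.17 and 0.22 (adjusted p = 0.151, 0.382 and 0.282). SLC7A1 was also lost with relative log expression size factors and with the filter at a mean of 5 CPM (adjusted p = 0.0504 and 0.0555). SYVN1 was lost with DESeq2 (adjusted p = 0.0621). CALR was lost on leaving out any 1 library other than ACBI-1 replicate 1 of either line (adjusted p = 0.0601 to 0.144), and SYVN1 on leaving out any 1 other than ACBI-1 replicate 1 of DND-41 (adjusted p = 0.0505 to 0.26). SLC7A1 was lost without ACBI-1 replicate 1 of either line, without either DMSO library of DND-41 or without DMSO replicate 2 of MOLT-4 (adjusted p = 0.0679 to 0.258). ATF6, DDIT3, SLC7A5, EPRS, PDIA3, PDIA6, SDF2L1 and CRELD2 did not pass here and passed as lower in at least 1 alternative. Among these, leaving out ACBI-1 replicate 2 of DND-41 brought in ATF6, DDIT3, PDIA3 and PDIA6 (-0.34, -0.54, -0.29 and -0.33). DDIT3 also passed without ACBI-1 replicate 2 of MOLT-4 (-0.64), SLC7A5 without DMSO replicate 2 of MOLT-4 (-0.34) and SDF2L1 without DMSO replicate 1 of MOLT-4 (-0.37). Without both replicate 2 libraries of MOLT-4, XBP1 differed by -0.69, HSPA5 by -0.78 and EDEM1 by 0.85, and SLC7A1, CALR and SYVN1 did not pass (adjusted p = 0.166, 0.231 and 0.173). With library size alone, which shifts the median of all genes by -0.12, 13 of the 41 were lower and 3 higher.

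**Figure D4:**
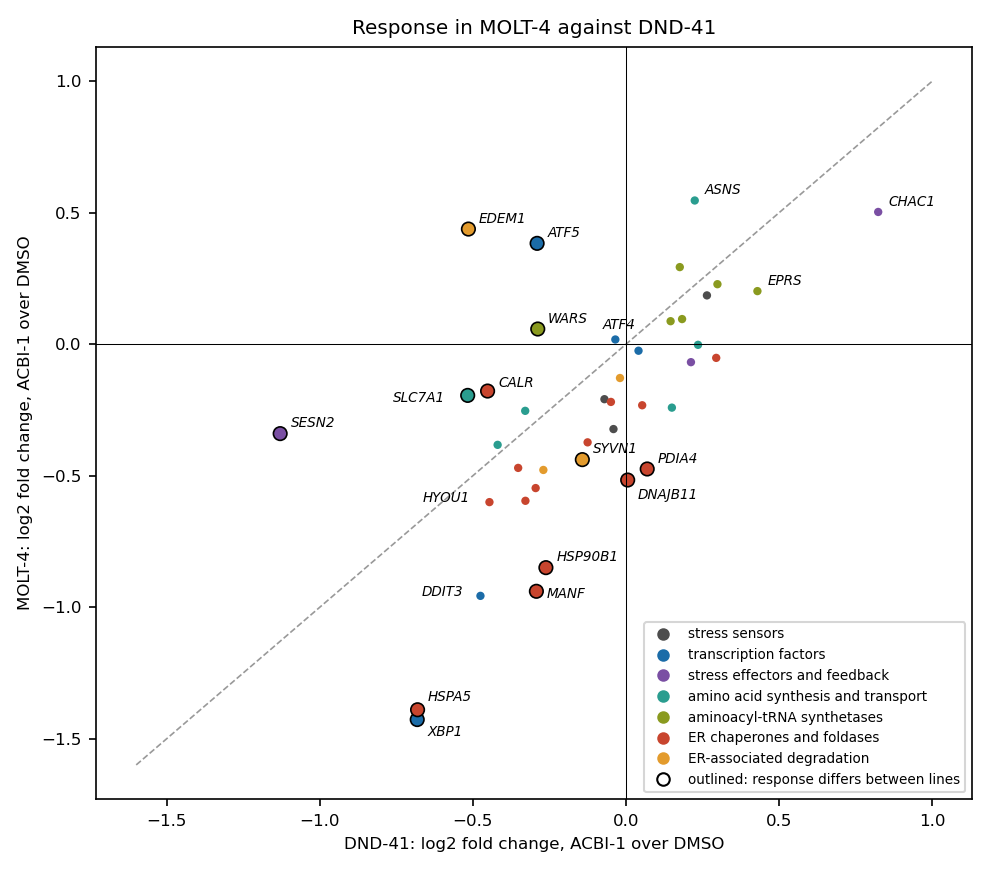
Log2 fold change (ACBI-1 over DMSO) in MOLT-4, vertical, against DND-41, horizontal, for the 41 genes, coloured by role; outlined points differ between the lines by the interaction test and the dashed line marks equal change. HSPA5 and XBP1 lie lowest, below the line, while EDEM1 and ATF5 lie in the upper left.

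Over the 41 genes, 29 had the same sign of change in both lines (70.7%), where 73.2% of all genes tested in both did. Pearson's r of the log2 fold changes between lines, across genes, was 0.60 for the 41 genes and 0.68 for all 12859, and genes are not independent replicates.

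Without the degrader the lines already differed in these genes. In MOLT-4 over DND-41, both with DMSO, 18 of the 41 were higher and 19 lower, where 34.7% of all 14868 genes tested were higher and 32.7% lower. This comparison uses the same DMSO libraries as the ones above. The ER chaperones were higher in MOLT-4 for 13 of 14 genes, with a median difference of 0.68, and 3 of 4 genes of ER-associated degradation were higher too. All 5 transcription factors were lower in MOLT-4, as were 5 of 6 genes of amino acid supply and 5 of 6 tRNA synthetase genes.

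HSPA5, at 571 and 586 CPM in MOLT-4 against 198 and 202 CPM in DND-41, was higher by 1.53 ± 0.05 on the log2 scale, and HSP90B1 by 1.35 ± 0.06. PDIA4 had 409 and 453 CPM in MOLT-4, against 177 and 181 CPM in DND-41 (1.26 ± 0.06), and DNAJB9 had 9.82 and 10.7 CPM against 5.03 and 4.16 CPM (1.16 ± 0.14). None of these groups overlapped. ATF5 was lower in MOLT-4 by the widest margin, with 81.8 and 81.8 CPM against 865 and 922 CPM in DND-41 (-3.45 ± 0.06). SLC7A11 had 4.41 and 2.68 CPM in MOLT-4, against 29.6 and 33.4 CPM in DND-41 (-3.16 ± 0.14). SESN2 and XBP1 followed at -2.33 ± 0.07 and -2.23 ± 0.06, and ATF4 was at -1.38 ± 0.06. Of the 37 calls, 33 passed in all 10 alternatives. SEL1L was lost with library size alone (0.15, adjusted p = 0.0583), and EIF2AK3 with no filter and with DESeq2 (adjusted p = 0.0529 and 0.12). EIF2AK3 was lost without DMSO replicate 1 of MOLT-4 (-0.18, adjusted p = 0.182), SEL1L without DMSO replicate 1 of DND-41 (0.19, adjusted p = 0.0554), AARS with library size alone (0.14, adjusted p = 0.0838) and PDIA3 in 7 alternatives, among them without DMSO replicate 1 of DND-41 (0.07, adjusted p = 0.456) and without DMSO replicate 2 of MOLT-4 (0.11, adjusted p = 0.106). ATF6 passed as higher without DMSO replicate 2 of MOLT-4 (0.20, adjusted p = 0.0125).

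Levels can be compared between genes only per length. In mean CPM per kilobase of exonic sequence, with lengths taken by gene identifier from GENCODE 29, ATF4 was the highest of the 41 genes in DND-41, at 307 with ACBI-1 and 317 with DMSO. CALR was the highest in MOLT-4, at 542 with ACBI-1 and 611 with DMSO. HSPA5 stood at 56.7 with ACBI-1 and 148 with DMSO in MOLT-4, and at 31.6 and 51.1 in DND-41. The sensors were low, ERN1 at 1.68 and 1.41 in DND-41 and at 1.43 and 1.25 in MOLT-4. The per-kilobase levels use every annotated exon of a gene, so a gene with long unused exons reads low.

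The rest of the pathway was read through 108 further genes in 7 lists, chosen like the 41 with earlier results of these data known. In DND-41, 20 of the 100 tested rose and 30 fell, and in MOLT-4, 26 of 104 rose and 27 fell. The median log2 fold change was 0.02 in DND-41 and 0.03 in MOLT-4. Of all genes tested, 20% rose and 23.2% fell in DND-41, and 20.7% rose and 24.4% fell in MOLT-4. The shares of the further genes lie closer to those of all genes than the falls of the 41 genes did.

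Of the other ATF4-dependent and amino acid genes, 12 of 18 tested fell in DND-41 and 10 of 22 in MOLT-4, while 3 and 5 rose. Over all genes tested, 23.2% fell and 20% rose in DND-41, and 24.4% fell and 20.7% rose in MOLT-4. SLC1A4 and SLC1A5, transporters of neutral amino acids, fell in DND-41 (-1.31 ± 0.06 and -0.91 ± 0.06) and in MOLT-4 (-0.88 ± 0.06 and -0.41 ± 0.05). TRIB3, a pseudokinase that restrains ATF4, fell in both (-0.72 ± 0.06 and -1.32 ± 0.13). DDIT4, an inhibitor of mTORC1, averaged 34.2 ± 2.999 CPM with ACBI-1 and 20.6 ± 0.209 CPM with DMSO in DND-41, and 3.78 ± 0.258 CPM and 20.5 ± 0.393 CPM in MOLT-4 (SD, n = 2 each). It thus rose in DND-41 (0.75 ± 0.08) and fell in MOLT-4 (-2.44 ± 0.12), and the difference between lines was -3.17 ± 0.15 (adjusted p = 1.08e-10). CTH, which makes cysteine, rose in DND-41 (0.87 ± 0.15). PYCR1, which makes proline, and CEBPB, a stress-related factor, rose in MOLT-4 (0.57 ± 0.05 and 0.46 ± 0.12). PSAT1, PYCR1, GPT2 and STC2 were too low to test in DND-41, and NUPR1, ALDH1L2, GDF15 and IMPACT (an eIF2 control gene) in both lines.

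The other 14 cytosolic tRNA synthetase genes were mixed, with 6 rises and 4 falls in DND-41 and 5 rises and 3 falls in MOLT-4. Shares over all genes tested were 20% up and 23.2% down in DND-41, and 20.7% up and 24.4% down in MOLT-4. VARS, the valyl synthetase, rose in both lines (0.41 ± 0.06 and 0.34 ± 0.06), as did FARSB, a phenylalanyl subunit (0.17 ± 0.06 and 0.34 ± 0.05), and CARS, the cysteinyl synthetase, rose in DND-41 (0.52 ± 0.06). RARS, the arginyl synthetase, and TARS, the threonyl synthetase, fell in both (-0.32 ± 0.07 and -0.41 ± 0.07 for RARS, -0.19 ± 0.07 and -0.40 ± 0.05 for TARS). FARSA, the other phenylalanyl subunit, fell in DND-41 (-0.27 ± 0.06). The 17 mitochondrial synthetase genes were mixed too, 4 up and 3 down in DND-41 and 4 up and 2 down in MOLT-4. VARS2 and WARS2 rose in both lines (0.33 ± 0.06 and 0.65 ± 0.06; 0.43 ± 0.11 and 0.49 ± 0.11), and CARS2 and TARS2 fell in both (-0.56 ± 0.07 and -0.31 ± 0.06; -0.33 ± 0.07 and -0.56 ± 0.07).

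Among 12 genes of the other eIF2 kinases and eIF2 control, 11 were tested. Of these, 2 rose and 1 fell in DND-41, and 3 rose and 2 fell in MOLT-4. All genes tested gave 20% rises and 23.2% falls in DND-41, and 20.7% and 24.4% in MOLT-4. EIF2AK4, the kinase GCN2 that senses uncharged tRNA, fell in both lines (-0.24 ± 0.09 and -0.64 ± 0.07). PPP1R15B, the constitutive partner of the eIF2 phosphatase, and EIF2B2 rose in DND-41 (0.27 ± 0.06 and 0.18 ± 0.06). Of the other subunits of the exchange factor eIF2B, EIF2B3 and EIF2B4 rose and EIF2B5 fell in MOLT-4 (0.32 ± 0.07, 0.29 ± 0.07 and -0.28 ± 0.06). Among 5 genes for the processing of the sensors, ATF6B, a relative of ATF6, rose in both lines (0.22 ± 0.06 and 0.17 ± 0.05) and MBTPS1, the Golgi protease that cuts ATF6, rose in MOLT-4 (0.23 ± 0.05).

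The other 18 genes of ER folding and translocation had 2 rises and 6 falls in DND-41 and 4 rises and 5 falls in MOLT-4. For this list and the next, the shares over all genes tested were 20% up and 23.2% down in DND-41. In MOLT-4 they were 20.7% up and 24.4% down. TXNDC11, a thioredoxin-domain protein, fell in both lines (-0.91 ± 0.08 and -0.23 ± 0.08), as did the ER oxidase gene ERO1LB (-1.18 ± 0.26 and -1.17 ± 0.16), the only gene of these lists with ERSE in its promoter window. Its relative ERO1L fell in DND-41 (-0.47 ± 0.07), and the proline isomerase gene PPIB fell in MOLT-4 (-0.33 ± 0.07). PDIA5, a disulfide isomerase, and DNAJC10, an ER reductase, rose in both lines (0.33 ± 0.10 and 0.34 ± 0.11 for PDIA5, 0.19 ± 0.07 and 0.26 ± 0.06 for DNAJC10). TXNDC5, a thioredoxin-domain protein, rose in MOLT-4 (0.38 ± 0.10). The other 17 genes of ER-associated degradation had 2 rises and 4 falls in DND-41 and 3 rises and 5 falls in MOLT-4. The derlins DERL1 and DERL3, membrane proteins of the exit channel, fell in both lines (-0.74 ± 0.07 and -0.57 ± 0.08; -0.61 ± 0.17 and -0.93 ± 0.10). UFD1L, a cofactor of the ATPase VCP, rose in both (0.40 ± 0.06 and 0.23 ± 0.05), VCP rose in DND-41 (0.16 ± 0.06), and UBE2J1, a ubiquitin-conjugating enzyme of the ER membrane, fell in DND-41 and rose in MOLT-4 (-0.22 ± 0.06 and 0.42 ± 0.06).

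**Figure D5:**
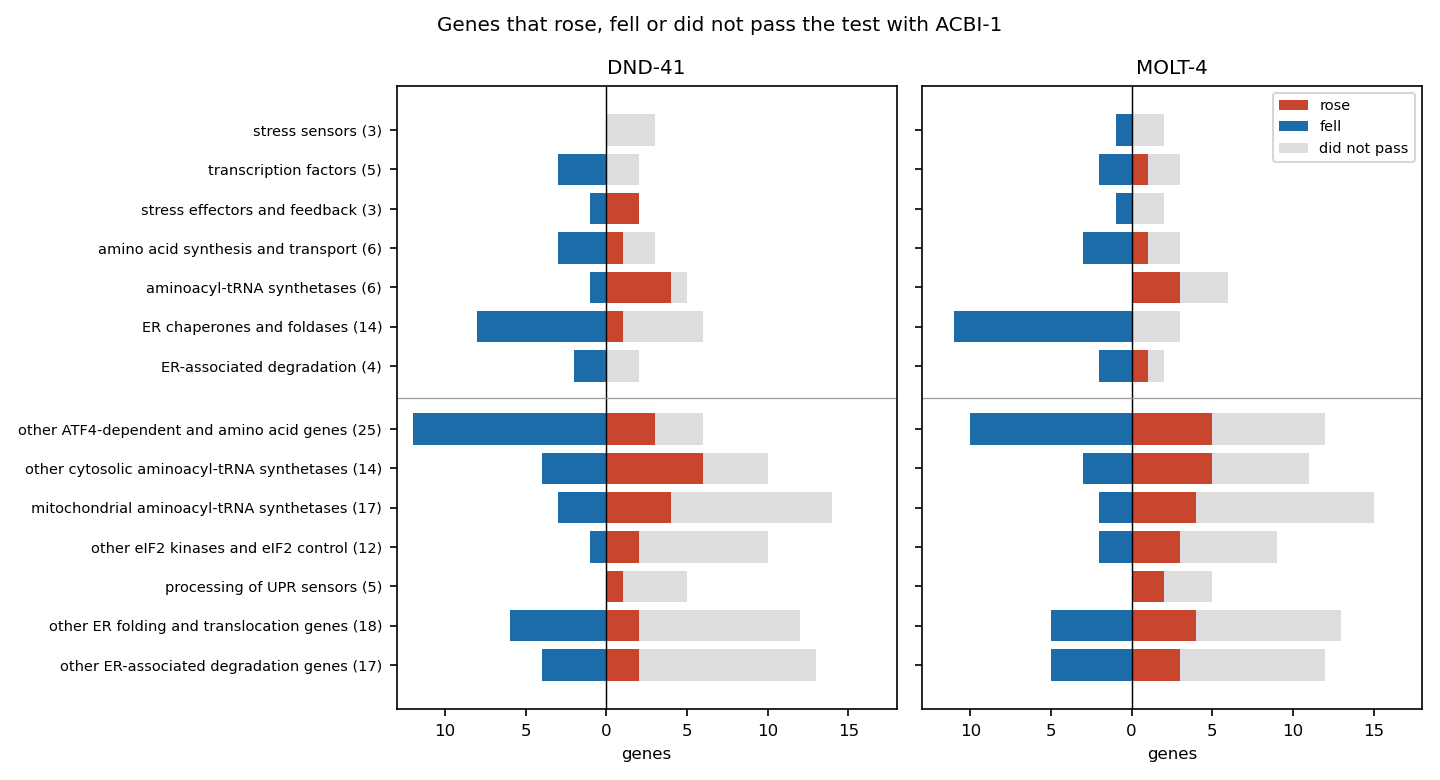
Number of genes that rose (red, right), fell (blue, left) or did not pass the test (grey, stacked on the rises) in each role of the 41 genes, above the line, and in each list of other pathway genes, below it, for DND-41 and MOLT-4; totals are in brackets and genes too low to test are not drawn. The ER chaperones show 8 falls in DND-41 and 11 in MOLT-4, the other ATF4-dependent genes 12 and 10.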

How the data were processed

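RNA of 8 libraries (DND-41 and MOLT-4, 100 nM ACBI-1 or DMSO, 8 h, 2 libraries per group) was read as strand-specific paired ends of 100 bases, per the labels' protocols. The authors' deposited counts are whole reads per gene, not normalized, and the submitters' processing notes name STAR 2.5.2a, featureCounts, DESeq2 1.12.4 and hg19. The annotation and strand setting of the counting are not stated there. Per the file headers, the authors also deposited log2 fold changes with standard errors, p-values and adjusted p-values, and score columns (a mean normalized count and a test statistic). These served for gene names and a check of signs. For the genes called here, the sign in the authors' table was the same for 6056 of 6056 in DND-41 and opposite for 6425 of 6425 in MOLT-4, so the 2 tables run in opposite directions.

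Counts were fitted with edgeR 4.0.16 in R 4.3.3: filterByExpr (minimum count 10), TMM, quasi-likelihood F test, Benjamini-Hochberg over all genes tested, threshold 0.05, per line, with the interaction over 8 libraries, and between lines with DMSO. The SE was taken as the size of the log2 fold change over the square root of F. Groups came from the labels. Replicates correlated at Pearson's r of 0.9963 to 0.9980 (log2 CPM), and none were identical. Alternatives were relative log expression size factors, library size alone, no filter, a filter at a mean of 5 CPM, DESeq2 1.42.0, a block for the replicate number, 1 fit over all 8 libraries, leaving out each library (the remaining one of its group being taken to vary like the rest), and leaving out both MOLT-4 replicate 2 libraries. Scripts were tested on simulated data. Python 3.11.15, pandas 2.3.3 and matplotlib 3.10.9 were used for tables and plots.

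The 41 genes and the 108 further genes were chosen with earlier results of these data known. Values per library are given for the sensors, ATF4, XBP1, DDIT3 and HSPA5, for the 6 largest called rises and falls per line at a mean of 5 CPM or more, for the 6 smallest adjusted p of the interaction and for the 4 largest differences of each sign with DMSO. From each further list up to 2 called rises and 2 called falls per line are named by the same rule.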

Additional observations from a re-analysis of the deposited data

Results flagged for a closer look

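For 13 of the 41 genes the test of the difference in ACBI-1 effect, MOLT-4 minus DND-41, passed (edgeR, adjusted p below 0.05). On the log2 scale the difference was -0.73 for XBP1, -0.69 for HSPA5, -0.63 for MANF, -0.57 for HSP90B1, -0.53 for PDIA4, -0.50 for DNAJB11 and -0.28 for SYVN1. It was 0.97 for EDEM1, 0.81 for SESN2, 0.69 for ATF5, 0.36 for WARS, 0.34 for SLC7A1 and 0.29 for CALR. ATF5 and EDEM1 fell in DND-41 and rose in MOLT-4.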

How the results depend on the processing

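Alternatives were run for the 41 genes and for counts over all genes, not for the 108 further genes one by one. No called value of the 41 genes changed sign under any of them. The 8 rises of the 41 genes in DND-41 became 5 with no filter, 5 with DESeq2 and 3 to 10 leaving out 1 library each. Over all genes, rises in DND-41 numbered 1856 with DESeq2 and 1745 to 3044 leaving out 1 library each. Rises in MOLT-4 numbered 1781 with library size alone, 1962 with DESeq2 and 1357 without both replicate 2 libraries, where falls numbered 2232. For the difference between lines, library size alone gave 3 of the 41 genes higher and 13 lower. Over all genes, 499 were higher with library size alone, 440 higher and 504 lower without both MOLT-4 replicate 2 libraries, and 699 to 1207 higher and 621 to 989 lower leaving out 1 library each. Library size alone shifted the median of all genes by -0.12 in the difference between lines and by -0.10 between lines with DMSO. The labels number the replicates alike in all groups, but with 2 pairs per line the numbers are not shown to pair the libraries (correlation of deviations 0.07 in DND-41 and 0.21 in MOLT-4). With the replicate block, 10 of the 41 genes rose and 19 fell in DND-41, and 6 rose and 21 fell in MOLT-4. With it, 6 were higher and 9 lower in the difference between lines. The block brought in ERN1, MARS and SYVN1 in DND-41 (adjusted p = 0.0196, 0.0243 and 0.0293), CALR in MOLT-4 (adjusted p = 0.0353), and ATF6 and CRELD2 in the difference between lines (adjusted p = 0.0398 and 0.0365). All 41 genes lay above 3 counts, about 0.15 CPM, but low counts widened the errors of CHAC1 and SLC7A11 in MOLT-4 (SE 0.23 and 0.24) and limited what their tests could show.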
